A study of Homo sapiens with 6 samples.

Results

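The ATP-binding cassette (ABC) transporter genes of subfamilies A to G were followed in RPMI8226 cells. Members were all genes on the primary chromosomes whose symbol is ABC, a subfamily letter from A to G and a number, which gave 46 of the 63677 genes counted. Subfamily A has 12 members, B has 9, C has 12, D has 4, E has 1, F has 3 and G has 5. The antigen peptide transporters TAP1 and TAP2 and the chloride channel CFTR carry other names and are not among them. ABCC13 has a matching symbol, although it is a pseudogene by its nomenclature.

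RPMI8226 is an established human multiple myeloma line, and the study asked what PTR1, a domain of the extracellular matrix protein HAPLN1, does to such cells and their response to drugs. The control cells received 100 nM glutathione-S-transferase (GST), the fusion partner alone, and the treated cells received 100 nM GST-PTR1, the PTR1 domain fused to GST. Both were wild type by genotype and were collected after 6 hr, and RNA-Seq was done on 3 biological replicates of each. All libraries come from 1 cell line, so the spread between them is the spread between cultures of that line.

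ABC proteins bind and hydrolyze ATP in a pair of nucleotide-binding domains. Most are membrane pumps that move lipids, sterols, peptides, heme, drugs or conjugated anions out of the cytosol or between organelles, either as full-length pumps or as shorter proteins that work in pairs. Subfamilies E and F have the ATP-binding domains without a membrane part and act on ribosomes and translation. In tumor cells the family is known for the multidrug exporters ABCB1, ABCC1 and ABCG2.

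Libraries are named here by the number in their column heading, GST 3, 4 and 5 and GST-PTR1 2, 4 and 5, which are not the replicate numbers of the samples. The deposited totals were 15202503 to 23453473 counts with GST and 22874133 to 44688737 with GST-PTR1. Levels in CPM are counts per 1000000, on a total scaled by the TMM factors of edgeR, which offset differences in library makeup, unless library totals are named. Plasma cell markers were present, with a summed level of 2136 to 2662 CPM with GST and 2192 to 2409 with GST-PTR1, and 3 of 10 were higher and 3 lower. The T cell list summed to 8.72 to 11.2 and 7.37 to 8.73 CPM, with CD2 at 0 counts and nearly all of the sum in CD8A and TRAT1. The myeloid list stayed at 0.802 to 1.38 and 0.660 to 1.04 CPM, with CD163 and FCGR3A at 0. Of 6 stromal markers, 4 had no count (COL1A2, COL3A1, DCN and LUM), and the sum was at most 0.522 CPM. The epithelial and hepatic list summed to 155 to 174 and 121 to 129 CPM, with ALB at 0 and most of the sum in KRT18 and EPCAM.

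In all, 26 members passed edgeR's filter on low counts and were tested, and 20 did not. GST-PTR1 was higher for 2 members, ABCA1 and ABCF2, and lower for 6, among them ABCA2, ABCA3, ABCA5, ABCB9 and ABCD3. Calls are those that stayed under 0.05 after Benjamini-Hochberg adjustment of the quasi-likelihood p-values of edgeR, taken over all 16926 genes tested. The background was 9.15% of all genes tested called higher and 11.4% called lower, against 7.69% and 23.1% of the tested members. The median log2 fold change of GST-PTR1 over GST was -0.21 over the tested members and 0.01 over all genes tested. RNA from all cells of a culture was measured together, so a change in a share of the cells and a change per cell cannot be told apart.

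Without regard to the test, the 3 GST-PTR1 libraries lay wholly above the 3 GST libraries for 4 members and wholly below for 10, and the treatments overlapped for 12. Over all genes tested, 19.2% lay above and 21.2% below. The study drew 8 of the members in a heatmap of genes that went up, chosen on these samples, so their direction is not independent evidence. Those 8 were all tested, and 2 were called higher and 0 lower. Outside the heatmap, 18 of 38 members were tested. They are what that choice left, so their direction is partly fixed by it too, and their values are a description: 6 were called lower and the median log2 fold change was -0.31.

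**Figure D1:**
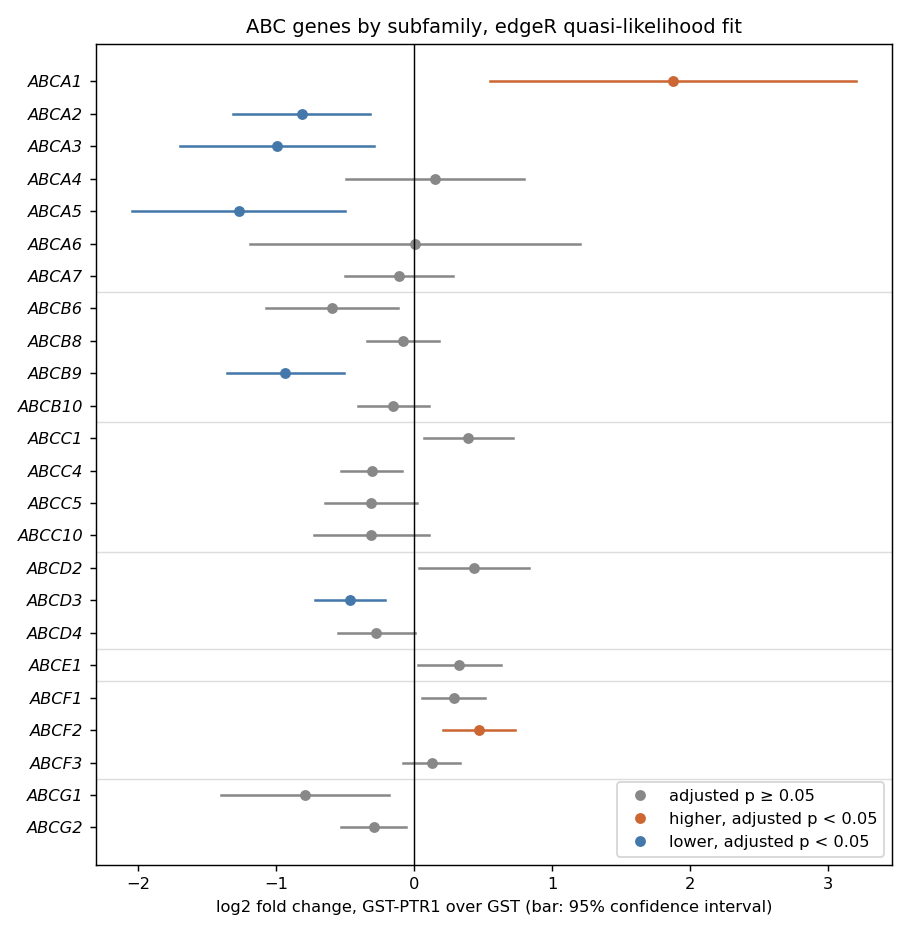
Each row is 1 of 24 tested ABC genes, from subfamily A at the top to G at the bottom, and the x axis is the log2 fold change of GST-PTR1 over GST with its 95% confidence interval from the edgeR fit. The 2 genes called higher are ABCA1 and ABCF2, the genes called lower are ABCA2, ABCA3, ABCA5, ABCB9 and ABCD3, and the intervals of ABCA1 and ABCA6 are the widest shown.

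The split between higher and lower depended on the scaling of the libraries. With the raw library totals as scale and no TMM factors, the median over all genes fell to -0.19, and 0 members were higher and 12 lower, beside 5.48% and 22.4% of all genes. ABC genes are also long: the median exon length of the tested members was 7736.5 bases, against 3685 over all genes tested. Over all genes, the median log2 fold change went from 0.16 for genes under 2000 bases to -0.09 for those over 10000. With the trend on exon length removed from each library, 4 members were higher and 5 lower, beside 11.9% and 11.2% of all genes.

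Promoters show where these genes start and which of them hold a match to the NF-κB motif, the binding site of the transcription factor that the study followed. RefSeq promoters of GRCh38.p14, from 250 bases before to 50 bases after the start, were matched by symbol for 35 of the 46 members. The NF-κB motif, searched on both strands, had a match in 5 of these (14.3%) and in 2958 of 27305 promoters of all genes (10.8%). Of the 6 members called lower, 5 had a matched promoter. The 4 promoters below are those of the 2 members called higher and of the 2 of these 5 that hold the motif. The motif match is in capitals. They lie at chr9:104928106-104928405 (ABCA1), chr7:151227156-151227455 (ABCF2), chr9:137028873-137029172 (ABCA2) and chr12:122966414-122966713 (ABCB9), all on the minus strand and written in the direction of the gene.
ABCA1: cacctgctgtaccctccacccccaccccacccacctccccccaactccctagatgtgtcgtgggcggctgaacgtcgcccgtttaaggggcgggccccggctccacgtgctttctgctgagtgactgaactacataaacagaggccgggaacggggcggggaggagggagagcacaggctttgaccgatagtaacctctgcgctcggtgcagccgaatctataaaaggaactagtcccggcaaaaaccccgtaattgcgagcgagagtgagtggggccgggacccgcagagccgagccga
ABCF2: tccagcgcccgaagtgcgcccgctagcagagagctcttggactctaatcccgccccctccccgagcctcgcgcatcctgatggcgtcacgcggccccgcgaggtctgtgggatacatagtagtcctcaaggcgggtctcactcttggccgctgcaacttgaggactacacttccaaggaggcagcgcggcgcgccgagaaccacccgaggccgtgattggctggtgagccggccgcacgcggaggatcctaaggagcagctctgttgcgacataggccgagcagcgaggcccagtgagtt
ABCA2: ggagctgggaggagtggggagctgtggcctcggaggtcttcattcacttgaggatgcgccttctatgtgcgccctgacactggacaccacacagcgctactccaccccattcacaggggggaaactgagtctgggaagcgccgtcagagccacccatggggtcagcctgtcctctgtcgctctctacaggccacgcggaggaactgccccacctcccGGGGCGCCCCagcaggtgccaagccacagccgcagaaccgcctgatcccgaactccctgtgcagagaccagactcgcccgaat
ABCB9: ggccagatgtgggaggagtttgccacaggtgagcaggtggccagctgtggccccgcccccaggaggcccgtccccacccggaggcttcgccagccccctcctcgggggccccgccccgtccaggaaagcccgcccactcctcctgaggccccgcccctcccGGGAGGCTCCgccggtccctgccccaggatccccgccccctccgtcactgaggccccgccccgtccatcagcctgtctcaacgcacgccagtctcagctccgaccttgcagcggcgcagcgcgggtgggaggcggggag
The letters of the motif are absent from the windows of ABCA1 and ABCF2. The match starts at position -33 in ABCA2 and at -89 in ABCB9, counted from the first base of the gene. Matches also lie at -22 in ABCF1, at 25 in ABCB6 and at 2 places in ABCC6. A match is a run of letters and does not show that the factor binds there.

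The lipid and sterol exporters, with 17 members, had 8 tested, of which 1 was higher (ABCA1) and 3 were lower (ABCA2, ABCA3 and ABCA5). Their median log2 fold change was -0.45. Calls here and in the groups below stand beside 9.15% of all genes tested called higher and 11.4% called lower. With few genes in each group, the calls describe single members. Both cholesterol exporters of blood cells were measured, and they had opposite signs, with ABCA1 called and ABCG1 not called.

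ABCA1 (ENSG00000165029), on chromosome 9 of GRCh37 from 107543283 to 107690518, passes cholesterol and phospholipid to lipid-poor apolipoprotein A-I. It had 52, 14 and 8 counts in GST libraries 3, 4 and 5, and 167, 134 and 85 in GST-PTR1 libraries 2, 4 and 5. On TMM-scaled totals these are 3.13, 0.562 and 0.379 CPM with GST and 7.50, 3.40 and 3.11 CPM with GST-PTR1. GST library 3 lies just above the lowest GST-PTR1 library, and the other 2 GST libraries lie far below all of them. The edgeR fit gave a log2 fold change of 1.87 (SE, the standard error, 0.60, edgeR adjusted p = 0.0492). It was 3.25 without GST library 3, and without GST library 4, GST library 5 or GST-PTR1 library 2 it was 1.46, 1.43 and 1.39 and no longer called (adjusted p = 0.179, 0.139 and 0.0899 from edgeR). The call was lost in 5 of 14 alternatives in all, also in DESeq2's test (1.81, DESeq2 adjusted p = 0.165) and in edgeR with library totals (1.68, edgeR adjusted p = 0.0502).

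ABCG1 (ENSG00000160179), on chromosome 21 from 43619799 to 43717354, loads cholesterol onto high-density lipoprotein and was far more abundant than ABCA1. It had 41.3, 21.6 and 19.9 CPM in GST libraries 3, 4 and 5 and 21.4, 12.7 and 13.7 CPM in GST-PTR1 libraries 2, 4 and 5. The highest GST-PTR1 library reached into the GST range, and again GST library 3 stood above the rest. On the log2 scale the difference was -0.79 (95% confidence interval -1.40 to -0.18, edgeR adjusted p = 0.0657). ABCG1 was called lower in 7 of 15 alternatives, DESeq2's test among them (DESeq2 adjusted p = 0.0204), and its log2 fold change was -0.39 without GST library 3.

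ABCA2 (ENSG00000107331), on chromosome 9 from 139901686 to 139923367, is a lipid transporter of late endosomes and lysosomes. It had 67.5, 38.2 and 35.5 CPM with GST and 31.1, 22.5 and 26.6 CPM with GST-PTR1. All 3 GST-PTR1 libraries lay below the lowest GST library. Its level was 1.76-fold lower, a log2 fold change of -0.82 (SE 0.22, edgeR adjusted p = 0.0260). Without GST library 3 the log2 fold change was -0.47 (edgeR adjusted p = 0.0394), and the call was lost without GST-PTR1 library 4 (-0.69, adjusted p = 0.0678 from edgeR) or 5 (-0.81, edgeR adjusted p = 0.0685).

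ABCA3 and ABCA5 were also called lower, both from few counts. ABCA3 (ENSG00000167972, chromosome 16 from 2325882 to 2390747) fills lamellar bodies with surfactant lipid in the lung. It had 24, 23 and 22 counts with GST and 8, 23 and 19 with GST-PTR1, or 1.44, 0.923 and 1.04 CPM against 0.359, 0.584 and 0.696 CPM, without overlap. The fitted log2 fold change was -0.996 (SE 0.32, edgeR adjusted p = 0.0481). This call was lost whichever 1 of the 6 libraries was left out, and it held in 4 of 14 alternatives (adjusted p from 0.0164 to 0.281 in the 14).

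ABCA5 (ENSG00000154265, chromosome 17 from 67240452 to 67323385) is a transporter of lysosomes and late endosomes. Its counts were 10, 18 and 15 with GST and 4, 11 and 10 with GST-PTR1, which are 0.601, 0.722 and 0.711 CPM against 0.180, 0.279 and 0.366 CPM. On that scale every GST-PTR1 library lay below the GST range, but the lowest GST library and the highest GST-PTR1 library both had 10 counts. GST-PTR1 over GST gave a log2 fold change of -1.27 (SE 0.35, edgeR adjusted p = 0.0258), and the call held in 7 of 14 alternatives. It was lost without GST library 4 or 5 or GST-PTR1 library 2 or 4 (log2 fold changes of -1.22, -1.24, -1.10 and -1.26, with adjusted p = 0.0903, 0.0666, 0.0688 and 0.0888 from edgeR). ABCA5 shares 2.42% of its exon bases with ABCA10 on the same strand.

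ABCA7, a phospholipid transporter, was the most abundant member of subfamily A per length, at a mean of 5.06 RPKM (CPM on library totals, divided by the exon length in kilobases) over the 6 libraries. It had 58.2, 38.7 and 34.1 CPM with GST and 43.2, 36.4 and 41.3 CPM with GST-PTR1, so the treatments overlapped. Its log2 fold change of -0.11 had a 95% confidence interval from -0.51 to 0.28 (edgeR adjusted p = 0.681). The photoreceptor retinoid transporter ABCA4 stood at 0.15 (interval -0.49 to 0.79) and ABCA6 at 0.00 (interval -1.19 to 1.20), with overlapping libraries and neither called.

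**Figure D2:**
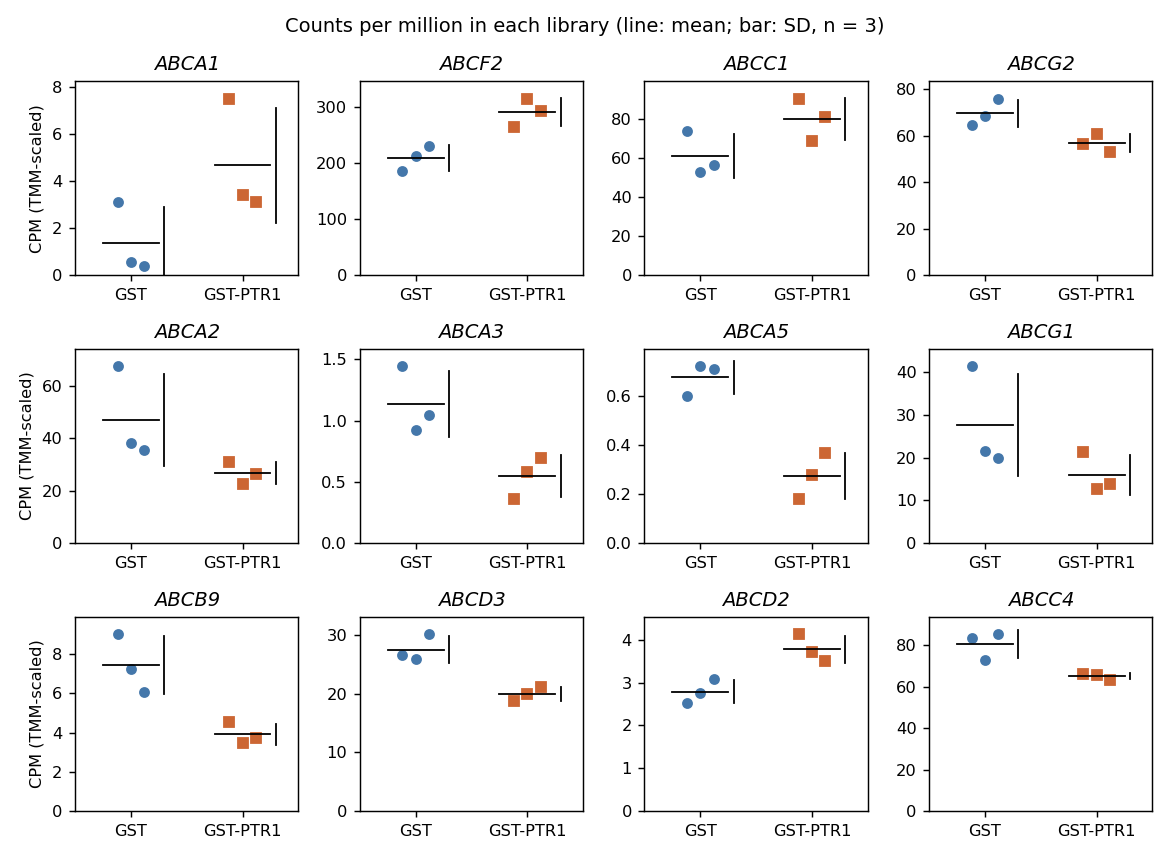
CPM on TMM-scaled totals in each library for 12 ABC genes, with GST as circles (libraries 3, 4 and 5 from left to right) and GST-PTR1 as squares (2, 4 and 5), the mean as a line and the SD as a bar (n = 3, its lower end stopped at 0). GST library 3, the leftmost circle, is the highest GST library for ABCA1, ABCA2, ABCA3, ABCC1, ABCG1 and ABCB9, and for ABCD3 and ABCF2 the treatments do not overlap.

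The shorter transporters of peroxisomes and lysosomes, which work in pairs, had 5 members, subfamily D and ABCB9, and all were tested. Of these, 3 were lower and 0 higher in the edgeR fit, with 1 at an unadjusted p under 0.05 in the higher direction. DESeq2 and limma voom likewise called none of them higher. For all 5 the 2 treatments were fully separate, 4 below and ABCD2 above. Over all genes tested, 11.4% were called lower and 9.15% higher, while 21.2% lay wholly below and 19.2% wholly above. With 5 genes these counts describe single members and are not a result about the group. ABCA2 and ABCA5, also placed in lysosomes, were counted with the lipid and sterol exporters.

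ABCD2 (ENSG00000173208), on chromosome 12 from 39943835 to 40013553, brings long-chain fatty acids into the peroxisome. It had 2.52, 2.77 and 3.08 CPM with GST and 4.13, 3.71 and 3.52 CPM with GST-PTR1. The lowest GST-PTR1 library was above the highest GST library. The edgeR fit gave a log2 fold change of 0.43 (95% confidence interval 0.03 to 0.83), but the adjusted p from edgeR was 0.114 and it was called in 0 of 15 alternatives. ABCD2 is 1 of the 8 heatmap genes.

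ABCD3 (ENSG00000117528), on chromosome 1 from 94883933 to 94984222, carries branched-chain and dicarboxylic acids into peroxisomes and was the most abundant of subfamily D at a mean of 3.14 RPKM. Its CPM values were 26.6, 26 and 30.2 with GST and 18.9, 19.9 and 21.1 with GST-PTR1. The replicates were close to each other and the treatments were apart. On the log2 scale the difference was -0.46 (SE 0.12, edgeR adjusted p = 0.0163). The call was lost without GST library 5 (-0.39, adjusted p = 0.0517 from edgeR) or GST-PTR1 library 2 (-0.42, edgeR adjusted p = 0.0569).

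ABCD4, which serves cobalamin export from the lysosome, had 16.5, 16.6 and 15.8 CPM with GST and 13.2, 12.1 and 15.2 CPM with GST-PTR1. The treatments did not overlap, and the log2 fold change of -0.27 was not called (edgeR adjusted p = 0.149). It was called with library totals (edgeR adjusted p = 0.0297), and 7.12% of its exon bases belong also to other genes of that strand.

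ABCB9 (ENSG00000150967), on chromosome 12 from 123405498 to 123466196, is the TAP-like transporter that moves peptides into lysosomes. It had 150, 181 and 128 counts with GST and 101, 137 and 101 with GST-PTR1, or 9.02, 7.26 and 6.07 CPM against 4.53, 3.48 and 3.70 CPM. Every GST-PTR1 library was below every GST library. ABCB9 was 1.91-fold lower, a log2 fold change of -0.93 (SE 0.19, edgeR adjusted p = 0.0061), and it was called in 15 of 15 alternatives (adjusted p from 4.69e-05 to 0.0282). It is the sole called gene of subfamily B in the edgeR fit.

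The drug, bile salt and organic anion exporters had 13 members and 5 tested, and 0 were called in the edgeR fit. At an unadjusted p under 0.05, 1 was higher and 2 were lower. DESeq2's test called 1 of the 5, ABCC4, lower, and limma voom called 0. Their median log2 fold change was -0.31.

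ABCC1 (ENSG00000103222), on chromosome 16 from 16043434 to 16236931, exports glutathione conjugates and leukotriene C4 and is the multidrug resistance-associated protein MRP1. It had 73.8, 52.7 and 56.2 CPM with GST and 90.2, 68.8 and 80.6 CPM with GST-PTR1, and GST library 3 exceeded the lowest GST-PTR1 library. The fitted log2 fold change was 0.39 (95% confidence interval 0.07 to 0.71, edgeR adjusted p = 0.0816). It was called higher in 6 of 15 alternatives, among them without GST library 3 (0.55, adjusted p = 0.0109 from edgeR) and without GST-PTR1 library 4 (0.51, edgeR adjusted p = 0.0327), and its adjusted p ranged up to 0.398.

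ABCG2 (ENSG00000118777), on chromosome 4 from 89011416 to 89152474, exports urate and many anticancer drugs. With GST it had 64.6, 68.3 and 75.8 CPM, and with GST-PTR1 56.4, 60.8 and 53.0 CPM. The GST-PTR1 libraries were all below the GST libraries. The log2 fold change of -0.29 (95% confidence interval -0.53 to -0.06) did not pass the threshold (edgeR adjusted p = 0.0729), and it did with library totals (-0.49, edgeR adjusted p = 0.00557).

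ABCC4, which exports cyclic nucleotides and prostaglandins, also lay lower without overlap. It had 83.8, 72.9 and 85.3 CPM with GST and 66.4, 65.5 and 63.4 CPM with GST-PTR1. GST-PTR1 over GST gave a log2 fold change of -0.31 (SE 0.10) and the adjusted p from edgeR was 0.0504, just over the threshold. DESeq2's test gave an adjusted p of 0.0471 and library totals in edgeR 0.00584.

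The remaining tested exporters of this group, ABCC5 and ABCC10, overlapped between treatments. ABCC5, a transporter of cyclic nucleotides and other anions, had 39.9, 29.3 and 28.6 CPM with GST and 29.1, 23.1 and 26.5 CPM with GST-PTR1. Its log2 fold change was -0.31 (edgeR adjusted p = 0.166), and it was called with library totals (edgeR adjusted p = 0.0417). ABCC10 stood at -0.31 as well (95% confidence interval -0.73 to 0.11, edgeR adjusted p = 0.267).

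ABCB1 (ENSG00000085563), on chromosome 7 from 87133175 to 87342611, is P-glycoprotein, the best known multidrug exporter. It was at the floor, with 0, 1 and 0 counts with GST and 0, 1 and 1 with GST-PTR1. At these depths a limit of 3 counts is worth 0.0671 to 0.197 CPM on library totals, so no difference was detectable.

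The 4 mitochondrial transporters of subfamily B were all tested and 0 were called in the edgeR fit. At an unadjusted p under 0.05, 1 was lower and 0 were higher, and DESeq2 and limma voom called 0. ABCB8 and ABCB10, both of the inner mitochondrial membrane, had log2 fold changes of -0.08 (95% confidence interval -0.34 to 0.18) and -0.15 (interval -0.41 to 0.11). ABCB10 is known for its part in heme synthesis. ABCB6, a porphyrin transporter, had 2.34, 2.17 and 1.85 CPM with GST and 1.30, 1.32 and 1.58 CPM with GST-PTR1, without overlap. Its log2 fold change was -0.59 (adjusted p = 0.0759, 0.0237 with library totals). The gene shares 54.5% of its exon bases with ATG9A on the same strand, where reads were left uncounted, so its level is uncertain.

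The soluble proteins ABCE1, ABCF1, ABCF2 and ABCF3 all had positive log2 fold changes, from 0.13 to 0.47, with a median of 0.30. Of the 4, 1 was called higher and 0 lower, and 3 had an unadjusted p under 0.05 in the higher direction. All 4 are heatmap genes. With library totals none was called, and the log2 fold change of ABCF3 turned to -0.07.

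ABCF2 (ENSG00000033050), on chromosome 7 from 150904923 to 150924316, had 186, 214 and 232 CPM with GST and 265, 316 and 294 CPM with GST-PTR1. The lowest GST-PTR1 library was above the highest GST library. The edgeR fit gave a log2 fold change of 0.47 (SE 0.12, edgeR adjusted p = 0.0171), and the call was lost without GST library 4 (edgeR adjusted p = 0.0624) or GST-PTR1 library 5 (0.0621). A pseudogene copy of ABCF2 exists, and reads that map to both were left out of the counts, so its level is uncertain.

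ABCF1 (ENSG00000204574), on chromosome 6 from 30539153 to 30564956, binds the initiation factor eIF2 and ribosomes. It had the highest level of the family per length, a mean of 62.2 RPKM. Its CPM values were 252, 263 and 248 with GST and 328, 283 and 319 with GST-PTR1. The 2 groups did not overlap, and the log2 fold change of 0.28 had an adjusted p of 0.0745 from edgeR and 0.0403 from DESeq2.

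ABCE1 (ENSG00000164163), on chromosome 4 from 146019084 to 146050331, splits ribosomes into subunits for recycling. It had 153, 154 and 204 CPM with GST and 193, 239 and 208 CPM with GST-PTR1, and GST library 5 lay within the GST-PTR1 range. On the log2 scale the difference was 0.33 (edgeR adjusted p = 0.115). Without GST library 5 it was 0.48 and called (edgeR adjusted p = 0.0311). ABCE1 shares 11.9% of its exon bases with ANAPC10 and OTUD4 on the opposite strand. ABCF3 had the smallest change of the 4, 0.13 (95% confidence interval -0.08 to 0.33).

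Per length, levels across the 26 tested members spanned from 0.0372 RPKM (ABCA5) to 62.2 RPKM (ABCF1), as means over the 6 libraries. The order began ABCF1, ABCF2 and ABCE1 at 62.2, 55.8 and 30.4 RPKM, and ABCF3 stood at 13.2 and ABCG2 at 13.1. With GST-PTR1 the first 2, at 64.2 ± 8.0 and 61.0 ± 2.59 RPKM (SD, n = 3 each), did not differ beyond their spread. With GST alone ABCG2 had 15.3 ± 0.978 RPKM and ABCF3 13.5 ± 0.358 RPKM (SD, n = 3 each). Next came ABCB10, ABCC1, ABCC4 and ABCB8, between 7.90 and 9.30 RPKM, with SDs from 0.434 to 1.80 RPKM within a treatment. ABCG2 and ABCC4 were thus the exporters of drugs and anions with the highest means with GST, and with GST-PTR1 ABCG2 stood at 10.9 ± 0.505 RPKM beside ABCC1 at 9.89 ± 1.80. A level above 1 RPKM was reached by 18 members in each GST library and by 17 or 18 in the GST-PTR1 libraries.

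**Figure D3:**
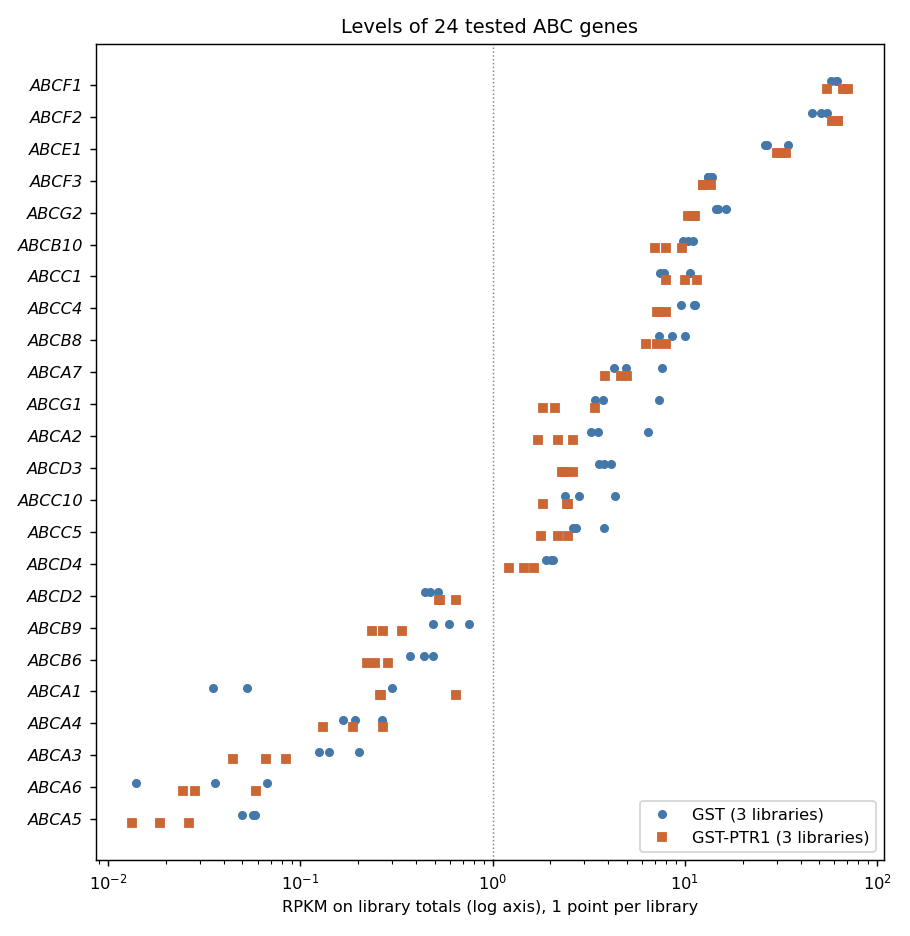
RPKM on library totals (log axis) in each library for 24 tested ABC genes, ordered by their mean, with GST as circles and GST-PTR1 as squares. Levels run from under 0.1 RPKM for ABCA5 and ABCA6 to over 50 for ABCF1 in every library, and the dotted line marks 1 RPKM.

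Ratios of members within a library do not depend on how libraries are scaled. The pairs were chosen after their values were seen, so the ratios are given with no test. The RPKM of ABCA7 over that of ABCA2 was 1.19, 1.39 and 1.32 in GST libraries 3, 4 and 5 and 1.91, 2.23 and 2.14 in GST-PTR1 libraries 2, 4 and 5. ABCA7 was thus the higher of the 2 in all libraries, and the treatments did not overlap.

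The ratio of ABCA1 to ABCG1 was 0.0408, 0.0140 and 0.0103 with GST and 0.189, 0.144 and 0.123 with GST-PTR1, without overlap. ABCG1 remained the more abundant of the 2 cholesterol exporters in all 6 libraries. The ratio of ABCC1 to ABCC4 was 0.939, 0.770 and 0.702 with GST and 1.45, 1.12 and 1.35 with GST-PTR1, so the order of these 2 exporters differed between the treatments in every library. That of ABCC1 to ABCG2 was 0.731, 0.494 and 0.475 with GST and 1.02, 0.723 and 0.973 with GST-PTR1, which overlap.

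The soluble proteins made up 56.4%, 61.8% and 62.3% of the summed RPKM of the family with GST and 66.9%, 69.3% and 68.8% with GST-PTR1. The summed RPKM itself was 255 ± 6.62 with GST and 249 ± 10.9 with GST-PTR1 (SD, n = 3 each). These sums are on library totals, and they overlap on that scale only. The TMM factor was higher in every GST library than in every GST-PTR1 library, so TMM scaling raises the GST-PTR1 sums relative to the GST sums. The sums thus do not show whether the family total differed between treatments, while the shares do not depend on the scaling. Subfamily D and ABCB9, without ABCA2 and ABCA5, took 3.38% to 4.08% of the sum with GST and 2.10% to 2.36% with GST-PTR1. The lipid and sterol exporters took 4.46% to 8.57% and 3.40% to 4.67%, which overlap, and the highest share was in GST library 3.

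**Figure D4:**
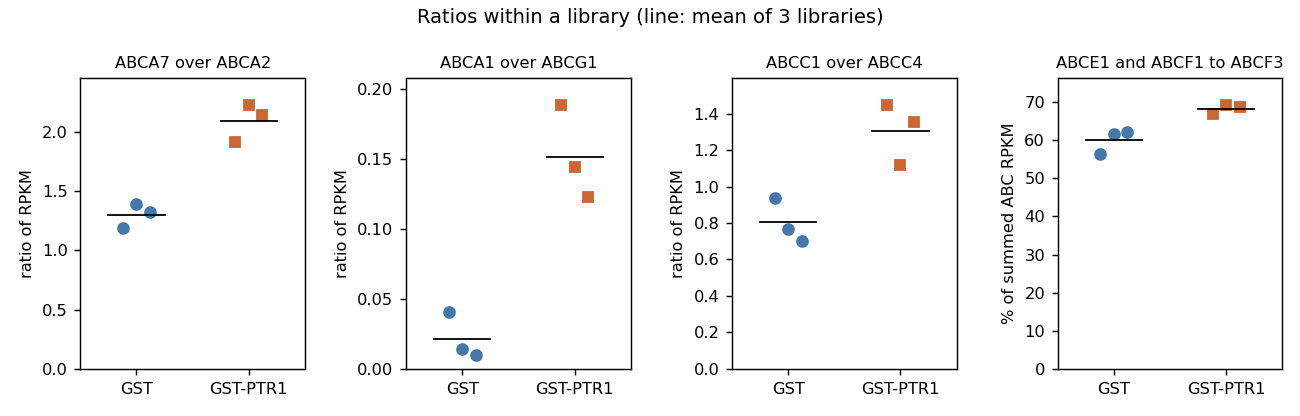
Ratios of RPKM between 2 ABC genes within a library, and the percent of the family's summed RPKM in ABCE1 and ABCF1 to ABCF3, for 3 GST libraries (circles) and 3 GST-PTR1 libraries (squares), with the mean as a line and each y axis from 0. In each of the 4 panels the GST-PTR1 libraries lie above the GST libraries. For ABCA7 over ABCA2 they span 1.91 to 2.23, against 1.19 to 1.39 with GST. The pairs were chosen after their values were seen, and ABCC1 over ABCG2, which overlaps, is not drawn. ABCA1, ABCC1, ABCE1 and ABCF1 to ABCF3 are heatmap genes, drawn by the study as genes that went up in these samples.

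Of the 20 members not tested, 10 had no count in any library: ABCA8, ABCA9, ABCA12, ABCB5, ABCB11, ABCC8, ABCC9, ABCC13, ABCG5 and ABCG8. Among them are both regulators of ATP-sensitive potassium channels (ABCC8 and ABCC9), the bile salt pump ABCB11 and the sterol pair ABCG5 and ABCG8 of gut and liver. In all, 15 members were at or under 3 counts in every library, ABCB1 and these 10 among them.

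The rest had a few counts each. ABCC2, the apical conjugate exporter of liver and kidney, had 6, 16 and 6 counts with GST and 11, 13 and 8 with GST-PTR1. ABCG4, a sterol transporter of the brain, had 5, 10 and 2 against 4, 16 and 3, and ABCC11 had 6, 2 and 1 against 1, 6 and 3. The counts of these 3 overlapped between treatments. ABCA10 had 1, 1 and 2 counts with GST and 4, 2 and 1 with GST-PTR1, and no library of ABCA13, ABCB4, ABCC3 or ABCC6 had more than 2.

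ABCC12 was the one untested member with separate treatments. It had 4, 9 and 3 counts with GST and 1, 1 and 1 with GST-PTR1, 16 against 3 in all. The ratio of GST to GST-PTR1 on TMM-scaled totals was 7.57 (exact 95% interval 2.17 to 40.6, for counting error only), and GST-PTR1 was at the floor. With a filter of 1 count in any library, ABCC12 was tested and called lower (adjusted p = 0.0172 from edgeR), and it was picked out here after its counts were seen.

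Several members are neighbors on a chromosome. The cluster on chromosome 17 from ABCA8 to ABCA5 (66863433 to 67323385 in GRCh37) holds 5 genes of subfamily A, of which ABCA8 and ABCA9 had no count, ABCA10 had at most 4 in a library, ABCA6 had 3 to 19 and ABCA5 had 4 to 18. On chromosome 16 ABCC1 lies beside ABCC6, and the first had at least 1187 counts in every library where the second had at most 2. ABCC6 has near-identical pseudogene copies, so its counts are uncertain. ABCF2 and ABCB8 lie close together on chromosome 7, and ABCF2 was called higher where ABCB8 was not called.

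Genes that work with the transporters were followed in lists written from general knowledge. The calls in each list are few and stand beside 9.15% of all genes tested called higher and 11.4% called lower. They are a description of single genes and not a result about the lists. Of the liver X receptor and sterol efflux genes, the regulators and partners of ABCA1 and ABCG1, 12 of 16 were tested, 0 were higher and 1 was lower, with a median log2 fold change of -0.17. The lower gene was RXRA, the partner receptor, at -0.69 (edgeR adjusted p = 0.0070). Of the sensors that control drug exporter genes, 10 of 14 were tested, 2 were higher and 1 was lower. HIF1A, the oxygen sensor subunit, averaged 51.2 ± 4.57 CPM in GST libraries and 137 ± 9.19 CPM in GST-PTR1 libraries (SD, n = 3 each), which is 1.42 on the log2 scale, and NFE2L2, the regulator of glutathione and ABCC genes, stood at 0.65. PPARA, a fatty acid sensor, fell by 0.57 on the log2 scale.

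Of the peroxisome import and beta-oxidation genes, 15 of 16 were tested and 1 was called in each direction. ACSL1, which activates fatty acids with coenzyme A, was the higher one, with a log2 fold change of 0.50 (edgeR adjusted p = 0.00406). The median of the list was 0.01.

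The ribosome recycling, rescue and initiation genes had 16 of 17 tested, 3 higher and 1 lower, with a median of 0.23. The lower gene was EIF2AK4, a kinase of eIF2, at a log2 fold change of -0.64 (edgeR adjusted p = 0.0047). PELO, the rescue factor that works with ABCE1, stood at 0.45 and EIF2S2, the beta subunit of eIF2, at 0.40. The heme and iron-sulfur cluster list had 16 of 18 tested, 2 higher (LYRM4 among them) and 1 lower (ALAD), and a median of 0.09. The glutathione list, which also holds the major vault protein gene MVP, had 12 of 14 tested and a median of -0.02. MVP, at 0.43, was the 1 gene called higher, so no glutathione gene proper was. SLC7A11, the cystine carrier, was lower at -0.48.

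**Figure D5:**
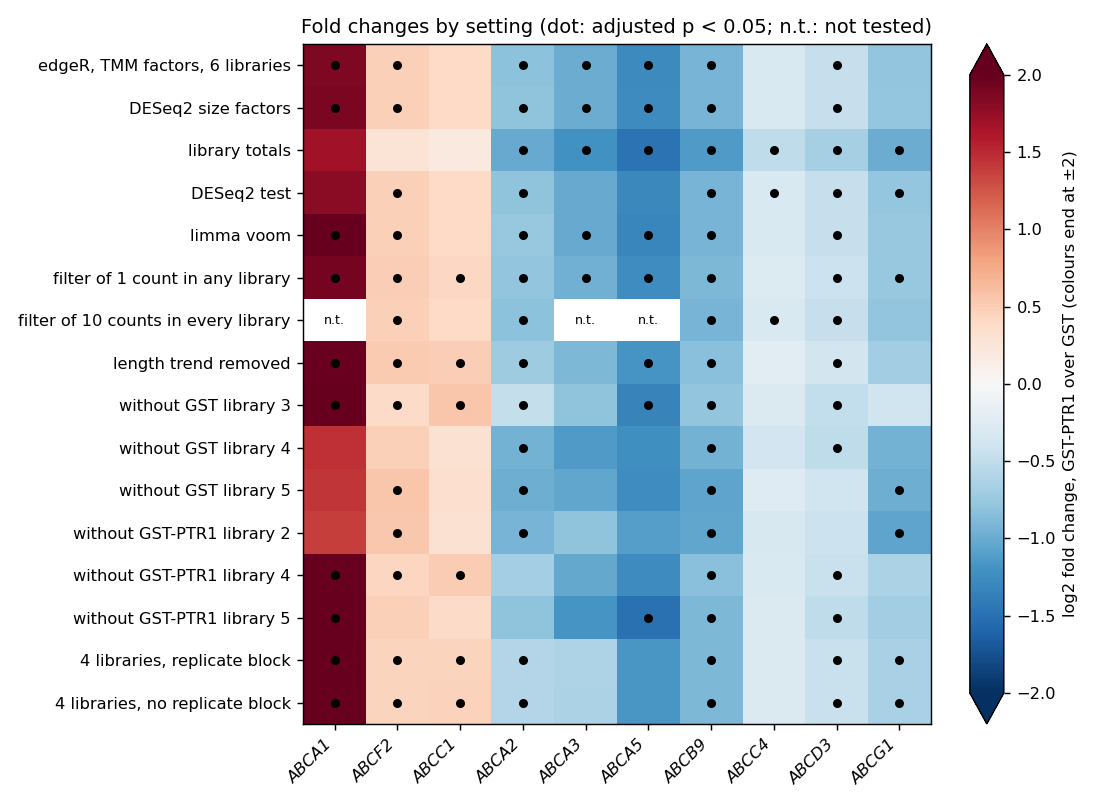
Log2 fold change of GST-PTR1 over GST (color, ending at ±2) for 10 ABC genes in columns under the edgeR fit of 6 libraries (top row) and 15 alternatives, with a dot where the adjusted p is under 0.05 and n.t. where the gene was not tested. ABCB9 has a dot in every row, while ABCA3 has one in 4 of the 14 alternatives where it was tested, and no gene shown changes sign.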

How the data were processed

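RNA-Seq libraries of 3 biological replicates of each treatment were made with a strand-specific mRNA kit and sequenced by a commercial service. The deposited file holds whole-number counts of reads per gene, made per the file headers with featureCounts 1.5.0-p1 and the Ensembl release 75 annotation of GRCh37. Reads were counted on the reverse strand, and those that overlap several genes on a strand or map to several places were left out. The aligner is not given in the sources used here. Column names give the treatment but not the replicate number of a sample.

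From the deposited counts, CPM was computed on TMM-scaled totals and RPKM on library totals and deposited exon lengths. Treatments were compared in R 4.3.3 with edgeR 4.0.16 (filterByExpr, TMM factors and the quasi-likelihood functions glmQLFit and glmQLFTest), and p-values of the 16926 genes tested were adjusted by Benjamini-Hochberg. The standard error is the log2 fold change divided by the root of F. DESeq2 1.42.0, limma 3.58.1 (voom), library totals, DESeq2's size factors, other filters, offsets for exon length and leaving out each library were the alternatives. The fit was first tested on simulated data. Exact permutation of 3 libraries against 3 cannot go below p = 0.1. A floor of 3 counts and the count intervals cover counting error only.

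Values in every library are given for members called in edgeR, the member with the highest mean RPKM of each subfamily, ABCB1, ABCC1 and ABCG2, and members whose call changes in an alternative. Up to 3 genes of each list of partners were named by smallest adjusted p. The members, lists and tests were chosen with earlier results of these data known. No pair of libraries within a treatment agreed within sampling noise (smallest chi-square per gene 7.66). Summaries used pandas 2.3.3 on Python 3.11.15, and figures matplotlib 3.10.9. Single-gene results of a few genes are not reported here, while the counts and medians include them.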

Additional observations from a re-analysis of the deposited data

How the results depend on the processing

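Over 15 alternatives, 342 of 356 log2 fold changes of the members given here kept their direction. The 14 that reversed were all of members not called. With library totals these were ABCA4 (-0.056), ABCA6 (-0.19) and ABCF3 (-0.069), and with the length trend removed ABCB8 (0.012). In 4 libraries they were ABCA6 (-0.66 with the replicate block, -0.69 without) and ABCA7 (0.092 with and without the block). Without a library the log2 fold changes ranged from -0.10 to 0.36 for ABCA4, -0.36 to 0.60 for ABCA6, -0.26 to 0.14 for ABCA7 and -0.17 to 0.017 for ABCB8.

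The count of members called higher, 2 in the edgeR fit, was 0 with library totals, 4 with a filter of 1 count in any library (36 members tested), 1 with 10 counts in every library (22 tested) and 4 with the length trend removed, and 0 to 4 without a library. The count called lower, 6, was 12 with library totals and 3 to 5 without a library. Over all genes, 3486 calls became 4914 with the filter of 1 count and 2287 to 3349 without a library. The cause was not tested. Without GST library 3 the log2 fold changes of ABCA1, ABCA2 and ABCG1 became 3.25, -0.47 and -0.39. ABCA3 had at most 24 and ABCA5 at most 18 counts in a library.

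The columns cannot be matched to the replicate numbers of the samples. A replicate block was fitted on the 4 libraries whose column numbers are shared (4 and 5). It gave 3 members higher, 5 lower and 3318 genes in all, and without the block 3, 5 and 3638. Deviations of same-numbered libraries from their treatment mean had a correlation of -0.03, so no shared effect of the number was seen. With these 4 libraries that is a single contrast, and it cannot show whether same-numbered cultures were handled together.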
